A study of Mus musculus with 5 samples.

Results

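A pair of single-cell RNA libraries of mouse lung at postnatal day 7 (pnd7) were compared, both from pups that had been kept in hyperoxia. In one library, the cells had been sorted by flow cytometry for staining with C12FDG, a substrate that becomes fluorescent when beta-galactosidase cleaves it. In the other, the cells were not sorted. Cells were taken as barcodes with more than 700 and fewer than 8000 genes detected and under 5% of counts from mitochondrial features. This left 493 of 569 barcodes in the sorted library and 1246 of 2664 in the unsorted library, together 1739 of the 18236 barcodes that the 5 libraries of the series hold. The comparison was made over all of these cells and within macrophages, which were the cells with counts of 3 or more of the 7 genes Cd68, Mpeg1, Marco, Ear2, Chil3, Plet1 and C1qa. There were 442 such cells in the sorted and 159 in the unsorted library.

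All mice were C57BL/6J. Newborn pups were exposed to more than 95% O2 for 3 days and then recovered in room air until pnd7. The sorted library came from the pooled lungs of 3 mice, and the submitters' label calls its cells senescent. The number of mice behind the unsorted library is not given in the sources used here. The unsorted library had been made for an earlier study. A further library, unsorted cells of pups kept in room air to the same age, was used only to show the level of a gene without hyperoxia, and it held 241 macrophages by the same rule. Staining, sorting and the experiment differed together between the libraries, and their parts in a difference cannot be told apart. With 1 library a side there is no spread between replicates. No test was made, and every interval below is a 95% interval for counting error only.

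Beta-galactosidase is a lysosomal hydrolase that removes terminal galactose from glycolipids and glycoproteins. Senescent cells often accumulate lysosomes, and their higher beta-galactosidase activity is used to find them. Macrophages, whose work is to engulf and digest, also carry many lysosomes. In the lung, alveolar macrophages live in the airspace, clear surfactant and inhaled particles, and settle there around birth. Interstitial macrophages, which express the C1q genes, sit within the tissue.

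Macrophages made up most of the sorted library. Their share was 89.7% of 493 sorted cells (exact Clopper-Pearson interval 86.6% to 92.2%) and 12.8% of 1246 unsorted cells (11.0% to 14.7%). The median sorted cell held 15529 counts and the median unsorted cell 7119.5, so each cell was also thinned to 2000 counts, leaving out 23 sorted and 158 unsorted cells below that depth. The shares were then 66.6% and 8.36%. The libraries thus differed at equal depth too. At least 3 of the 12 alveolar macrophage markers were found in 81.3% of sorted and 9.87% of unsorted cells, and 3 or more of the 10 C1q macrophage markers in 16.2% and 2.17%. The 2 marker lists share no gene, but a cell may hold markers of both.

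The other lung cell types were rare after sorting. No sorted cell held 3 markers of T and NK cells, B cells, mast cells, airway epithelium or mesothelium, where 0 of 493 cells allows a share of up to 0.745% (upper Clopper-Pearson limit, counting error only). In the unsorted library, 6.34% of cells held 3 markers of T and NK cells and 5.78% of B cells. Endothelial markers were found in 5 sorted cells and 317 unsorted cells, and mesenchymal markers in 5 and 451. Markers of alveolar epithelium were found in more of the sorted cells than endothelial or mesenchymal markers were, but in a smaller share than of the unsorted cells. At least 3 markers of type II cells, which make surfactant, were found in 14.2% of sorted cells and 37.0% of unsorted cells. Of the 70 such sorted cells, 58 were also macrophages by the gate and 12 were not. In cells thinned to 2000 counts the shares were 5.74% and 24.9%. At least 3 markers of type I cells, the thin cells of the gas exchange surface, were found in 29 sorted and 421 unsorted cells. Of the 29 sorted cells, 20 were not macrophages.

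**Figure D1:**
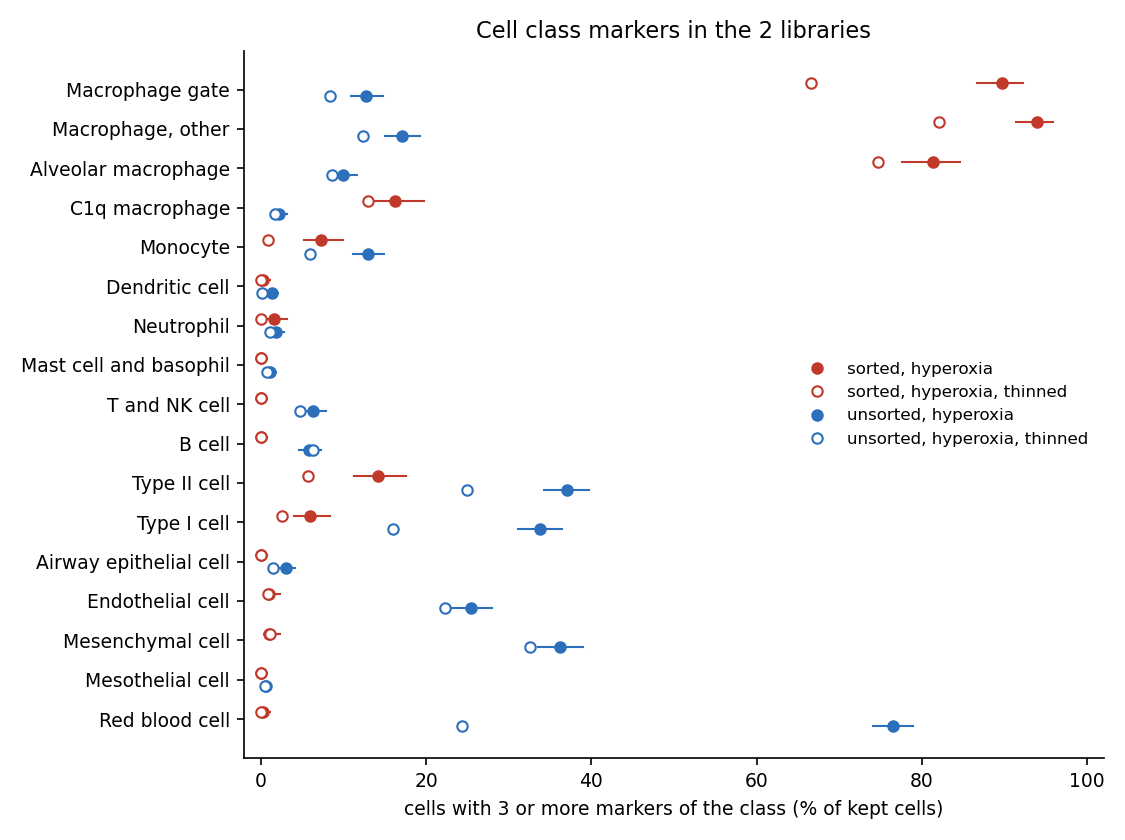
Share of kept cells (x axis, percent) with counts of at least 3 markers of each cell class (y axis) in the sorted (red) and the unsorted (blue) hyperoxia library. Filled points are the kept cells without thinning, with 95% Clopper-Pearson intervals, and open points are kept cells thinned to 2000 counts. The macrophage gate stood at 89.7% against 12.8%, and red blood cell markers at 0.203% against 76.6%.

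RNA of other cells lay in nearly every unsorted cell. Hemoglobin genes, which mark red blood cells, gave counts in all 159 unsorted macrophages and in 17.9% of the 442 sorted macrophages. They took 2.34% of the counts of unsorted macrophages and 0.00120% of those of sorted macrophages. Sftpc, the surfactant protein of type II cells, had counts in 91.8% of unsorted and 37.8% of sorted macrophages, at 11901 and 1499 CPM. The unsorted class also held cells of other kinds, since 65 of its 159 cells had 3 or more of the 10 monocyte markers and 33 had 3 or more of the 10 endothelial markers, against 32 and 1 of the 442 sorted macrophages. Genes with a low ratio below are therefore given beside these values, and the part of other cells in them was not tested. A narrower class was used where this matters. These alveolar-marker-rich macrophages held 6 or more of the 12 alveolar markers and no count of the monocyte genes Plac8, Ly6c2, Ccr2 and Ace. They numbered 296 in the sorted, 41 in the unsorted and 66 in the room air library, with medians of 16549, 14122 and 12707.5 counts per cell. The narrower class was set after the values were seen. Hemoglobin still took 0.491% of the counts of its unsorted cells. Of these 41 cells, 18 held 3 or more type II markers and 10 held 3 or more type I markers. Summed type I markers stood at 2013 CPM in them, against 1332 CPM in all unsorted macrophages. Airway markers stood at 1497 against 851 CPM, and type II markers at 5057 against 13527 CPM. The narrower class thus still held RNA of other cells, and its part in the ratios was not tested.

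Over all cells, the genes with the highest ratio were those of metal and oxidant stress and of macrophages. Each gene's counts, added up over a library's kept cells, are given as parts of 1e+06 counts of those cells (CPM). Among the 11340 genes with at least 100 counts over both libraries, 926 (8.17%) were at least 2-fold higher in sorted cells and 4129 (36.4%) at least 2-fold lower. The median log2 ratio of all these genes was -0.55. Slc7a11, the cystine importer, led with 661 CPM in sorted and 5.82 CPM in unsorted cells, a log2 ratio of 6.83 (6.51 to 7.17). Hmox1, the heme-degrading heme oxygenase 1, had 7435 and 77.9 CPM. The next were Gdf15, Cxcl2, Mmp12, Mt2, Mt1, the unnamed locus LOC115489638, Clec4e, Il1a, Clec4d and Mmp19, with log2 ratios from 5.92 down to 4.67. Clec4e and Clec4d are lectin receptors of macrophages. The lowest were 4 hemoglobin genes, at -10.38 to -10.93, the neutrophil gene S100a9 with 0 counts against 6496, and Tmem100, Ly6d, Clec14a, LOC108169205, Gimap4, Cstdc5 and Ms4a4b. Tmem100 and Clec14a are endothelial genes, and Ly6d and Ms4a4b are lymphocyte genes. With 89.7% macrophages on one side and 12.8% on the other, these values hold the difference in cell types together with any difference within a type.

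Within macrophages, far fewer genes were past the 2-fold limit. Of 7447 genes with at least 100 counts, 294 (3.95%) were at least 2-fold higher in sorted macrophages and 1161 (15.6%) at least 2-fold lower. The median log2 ratio of all these genes was -0.28, and with the ratios centred on that median the counts were 523 and 720. The genes of highest ratio took large parts of the library. Fth1, the ferritin heavy chain, alone had 42867 CPM in sorted against 9933 CPM in unsorted macrophages. By the rule of the 12 highest ratios among genes with at least 400 counts, these were Cxcl1, Mt2, Il7r, Mt1, Gdf15, Hmox1, Slc7a11, LOC115489638, Cxcl2, Sqstm1, Srxn1 and Mmp19, from 5.86 down to 3.17. The 12 lowest were S100a9, the hemoglobin genes Hbb-bt, Hbb-bs, Hba-a2 and Hba-a1, Cstdc5, Stfa1, Ngp, Plac8, Scgb1a1, Lyz1 and Col4a1, from -11.61 up to -4.99. S100a9, Cstdc5, Stfa1 and Ngp, all genes of the neutrophil and myeloid lineage, had 0 counts in sorted macrophages, so their ratios are upper bounds with 3 counts in place of 0. S100a9 had counts in only 5.66% of the 159 unsorted macrophages. Its level was 1282 CPM in them and 5.12 CPM in unsorted alveolar-marker-rich cells. At least 3 neutrophil markers were found in 10 of the 159 unsorted and 8 of the 442 sorted macrophages. The part of neutrophils in these ratios was not tested. Scgb1a1 marks club cells of the airway and Col4a1 is a collagen of basement membranes.

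**Figure D2:**
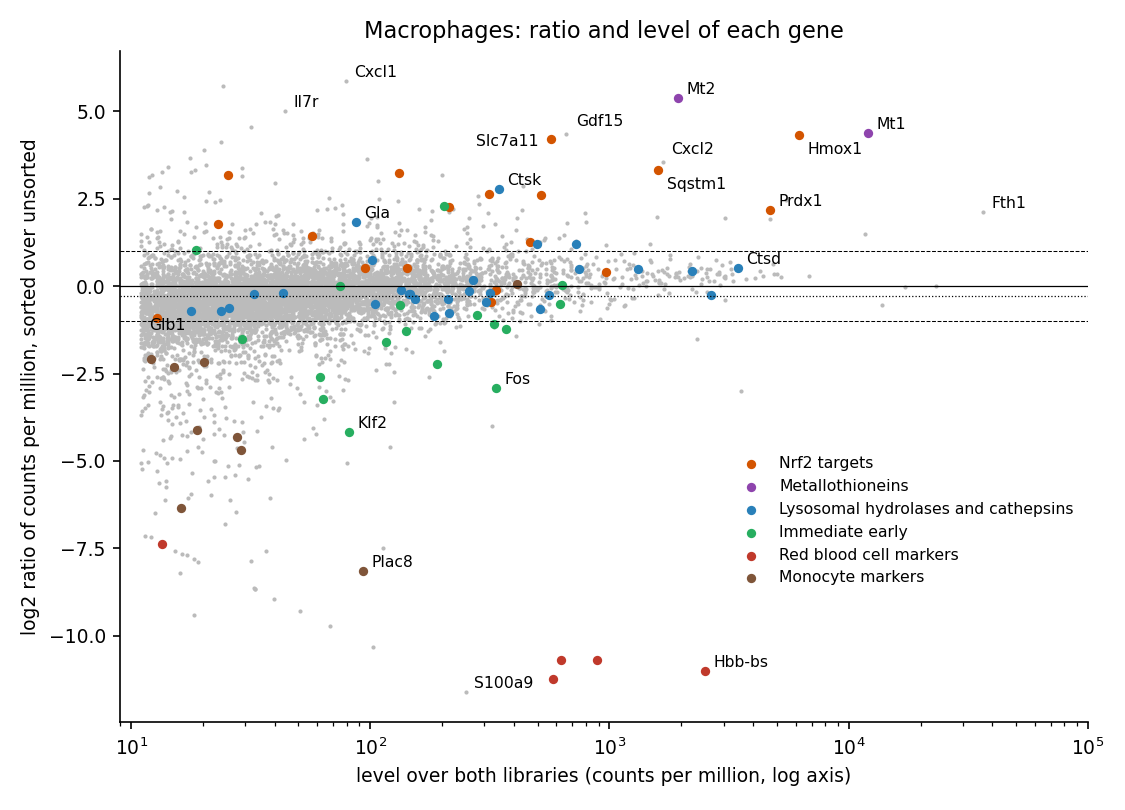
Log2 ratio of CPM in sorted over unsorted macrophages (y axis) against the CPM over both libraries (x axis, log scale) for the 7447 genes with at least 100 counts, each point a gene. Colours mark members of 6 lists, dashed lines the 2-fold limits and the dotted line the median of -0.28. Metallothionein and Nrf2 target genes lie at the top up to 5.39, and hemoglobin and monocyte genes at the bottom.

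The metallothioneins had the highest median of the 29 function lists, 4.89. This list holds only 2 genes, Mt1 and Mt2, and both are among the macrophage genes of highest ratio named above. Members and lists were chosen with earlier results of these data known, so the rank of the list is a description and not a test. Metallothionein 1 and 2 are small cysteine-rich proteins that bind zinc, copper and cadmium and take up oxidants. Mt1 had 14833 CPM in sorted, 712 CPM in unsorted and 685 CPM in room air macrophages. Sorted macrophages were thus 20.8-fold above unsorted ones, with a log2 ratio of 4.38 (4.30 to 4.46). Mt2 had 2398, 57.1 and 42.8 CPM, a 42.0-fold difference and a log2 ratio of 5.39 (5.11 to 5.69). For both genes, unsorted hyperoxia macrophages stood close to those of room air. In the alveolar-marker-rich cells the log2 ratios were 4.30 for Mt1 and 4.98 for Mt2.

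Targets of Nrf2 were the next list. Nrf2 is a transcription factor that is released under oxidant or electrophile stress and drives genes of glutathione synthesis, thiol reduction and heme breakdown. Of 20 genes on the list, 18 had at least 100 counts, 12 were at least 2-fold higher in sorted macrophages and 0 at least 2-fold lower. Their median log2 ratio was 1.98, against -0.28 over all genes, of which 3.95% were at least 2-fold higher and 15.6% lower. Hmox1 had 7658 CPM in sorted, 381 CPM in unsorted and 110 CPM in room air macrophages, 20.1-fold higher in sorted than in unsorted cells. Its log2 ratio was 4.33 (4.22 to 4.44). Slc7a11 brings in cystine for glutathione, and had 700, 38.1 and 16.9 CPM in the same order. The glutathione synthesis enzyme has 2 subunits, of which Gclm had 376 against 59.9 CPM and Gclc 253 against 52.1 CPM. Thiol-reducing enzymes stood the same way. Srxn1, sulfiredoxin, had 159 against 16.8 CPM, Txnrd1, thioredoxin reductase 1, had 620 against 101 CPM, and Prdx1, peroxiredoxin 1, had 5559 against 1221 CPM. Sqstm1, the autophagy receptor p62, had 1943 against 193 CPM. The glutathione reductase Gsr, at 331 against 357 CPM, and the pentose phosphate enzymes Taldo1 and Tkt, with log2 ratios of 0.41 and -0.44, were within 2-fold. In alveolar-marker-rich cells, 13 of 17 members were at least 2-fold higher and the median was 1.97, where 4% of 5902 genes were at least 2-fold higher and 12.4% at least 2-fold lower.

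Both ferritin chains, which store iron, were higher. Besides Fth1, the light chain Ftl1 had 6527 CPM in sorted and 1171 CPM in unsorted macrophages, a log2 ratio of 2.48 (2.42 to 2.54). The room air values were 10238 CPM for Fth1 and 1211 CPM for Ftl1. These 2 were the only members at least 2-fold higher among 11 of 14 iron genes measured in macrophages. Of all 7447 genes, 3.95% were at least 2-fold higher and 15.6% at least 2-fold lower. In alveolar-marker-rich cells, 3 of 8 members were at least 2-fold higher and 2 lower, against 4% and 12.4% of all genes. Slc40a1, the iron exporter ferroportin, had 97.2 against 48.7 CPM, just under the limit, and Tfrc, the transferrin receptor, 20.2 against 23.5 CPM. Hfe, a regulator of iron uptake, was the member at least 2-fold lower, with 13.5 against 62.2 CPM. Ferritin thus differed by more than the exporter and the uptake receptor did.

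The stretches before the starts of 5 of these genes are shown because they represent the metal, oxidant, amino acid and chemokine genes that were higher in sorted macrophages. Each is the 250 bases before the start in RefSeq on GRCm38.p6, read 5′ to 3′ on the gene's strand. Mt1 lies at chr8:94178839-94179088 on the + strand, Srxn1 at chr2:152105274-152105523 on the + strand, Slc7a11 at chr3:50443614-50443863 on the - strand, Cxcl1 at chr5:90890995-90891244 and Cxcl2 at chr5:90903649-90903898, both on the + strand. Capitals mark matches on either strand. These are the TGCACNC form of the metal response element in Mt1 and the AP-1 site TGACTCA in Srxn1. In Slc7a11 they are the C/EBP-ATF element TGATGNAA, and in Cxcl1 and Cxcl2 the kB site GGGANNNNCC.
Mt1: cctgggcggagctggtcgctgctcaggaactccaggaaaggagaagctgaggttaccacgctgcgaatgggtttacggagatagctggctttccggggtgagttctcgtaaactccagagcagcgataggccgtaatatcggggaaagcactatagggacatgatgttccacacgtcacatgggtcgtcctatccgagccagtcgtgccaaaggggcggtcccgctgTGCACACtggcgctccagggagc
Srxn1: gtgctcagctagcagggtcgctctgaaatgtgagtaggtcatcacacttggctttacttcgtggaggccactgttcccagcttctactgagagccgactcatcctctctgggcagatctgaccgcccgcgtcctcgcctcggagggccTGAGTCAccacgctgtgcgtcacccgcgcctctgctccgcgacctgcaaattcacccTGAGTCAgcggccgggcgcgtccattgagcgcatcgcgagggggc
Slc7a11: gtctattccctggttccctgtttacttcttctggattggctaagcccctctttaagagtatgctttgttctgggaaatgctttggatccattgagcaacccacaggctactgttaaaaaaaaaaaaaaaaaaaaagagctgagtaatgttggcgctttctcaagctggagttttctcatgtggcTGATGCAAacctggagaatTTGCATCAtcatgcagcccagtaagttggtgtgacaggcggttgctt
Cxcl1: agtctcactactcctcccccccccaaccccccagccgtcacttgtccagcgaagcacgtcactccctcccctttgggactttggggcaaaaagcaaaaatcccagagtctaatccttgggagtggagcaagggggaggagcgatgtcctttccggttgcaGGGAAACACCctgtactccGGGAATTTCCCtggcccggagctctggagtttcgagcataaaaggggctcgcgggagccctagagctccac
Cxcl2: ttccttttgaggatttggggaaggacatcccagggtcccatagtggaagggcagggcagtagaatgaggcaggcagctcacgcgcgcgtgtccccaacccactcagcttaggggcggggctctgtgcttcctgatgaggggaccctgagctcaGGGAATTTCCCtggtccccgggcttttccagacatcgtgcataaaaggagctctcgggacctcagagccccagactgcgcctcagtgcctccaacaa
In Cxcl1 and Cxcl2, matches on both strands overlap. Over the 75 genes at least 4-fold higher in sorted macrophages, 56 had a RefSeq promoter. The antioxidant response element TGACNNNGC, which Nrf2 binds, was in 16.1% of these 56, in 14.3% of the 6008 measured genes with a promoter and in 11.5% of all 27025 genes. The AP-1 site was in 14.3%, 3.76% and 5.16% in the same order, with Cxcl10, Ddit3, Klhl21, Mmp12, Mt2, Osgin1, Prdx1 and Srxn1 as the 8 genes that hold it. The AP-1 and antioxidant elements share their first 4 letters, and the same site can match both, as in Mt2. Cxcl10, Mt2 and Prdx1 held matches to both, so the shares of these elements are not separate. The kB site was in 25.0%, 26.1% and 19.7%. The core TCACGTGA of the CLEAR element, which the lysosomal regulator TFEB binds, was in 0 of the 56, in 2.28% and in 0.907%. The TGCACNC form of the metal response element (10.7%, 11.9% and 11.8%) and the C/EBP-ATF element (7.14%, 2.55% and 3.91%) were chosen after the ratios were seen. A match is a run of letters and does not show binding.

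Lysosomal genes were mostly within 2-fold in macrophages, as most of all measured genes were. The stain reads beta-galactosidase activity, and mRNA levels are a different measure. Glb1, which encodes beta-galactosidase itself, had 115 counts (15.7 CPM) in sorted, 46 counts (25.8 CPM) in unsorted and 54 counts (24.1 CPM) in room air macrophages. The log2 ratio was -0.71 (-1.22 to -0.19), so its mRNA was not higher in the sorted macrophages. In thinned cells, Glb1 had counts in 4.87%, 5.30% and 4.72% of macrophages in the same order. Over all cells the ratio was -0.31. Among all 7447 genes measured in macrophages, 3.95% were at least 2-fold higher and 15.6% lower, with a median of -0.28. Of 29 hydrolases and cathepsins measured among 30, 4 were at least 2-fold higher and 0 at least 2-fold lower, with a median of -0.22. These 4 were Ctsk, cathepsin K, with 414 against 59.9 CPM, Gla, alpha-galactosidase A, with 101 against 28.6 CPM, Ctsl, cathepsin L, with 557 against 243 CPM, and Lipa, lysosomal acid lipase, with 812 against 355 CPM. Ctsk stood at 172 CPM in room air macrophages, above the unsorted hyperoxia value. In alveolar-marker-rich cells only Ctsk and Gla of the 28 measured members passed 2-fold, both higher. Of all 5902 genes measured there, 4% were at least 2-fold higher and 12.4% lower. The most abundant cathepsin, Ctsd, had 3672 against 2550 CPM, and Psap, the precursor of the saposins, 2546 against 3062 CPM. Of 22 measured genes on the membrane and acidification list, Atp6v0c, Gpnmb and Mitf were at least 2-fold higher and Slc11a1 at least 2-fold lower. Mitf is a transcription factor and not a membrane protein. Atp6v0c, a proton pump subunit, rested on 186 counts against 7. Lamp1, a main protein of the lysosomal membrane, had a log2 ratio of -0.03.

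Over all cells, by contrast, 17 of the 29 hydrolases were at least 2-fold higher in the sorted library, with a median of 1.10. Of all 11340 genes, 8.17% were at least 2-fold higher, and their median was -0.55. The sum of the list was 15638 CPM in sorted and 5484 CPM in unsorted cells, and 16179 and 14123 CPM within macrophages. In alveolar-marker-rich cells the sums were 15648 and 16144 CPM. The lysosomal sum thus differed less between macrophages of the libraries than between the libraries as a whole.

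Markers of senescence other than beta-galactosidase gave mixed values. Of 12 genes on a list of senescence marks, 10 were measured in macrophages. By the 2-fold limit 2 were higher and 1 lower, with a median of -0.23, against 3.95%, 15.6% and -0.28 over all genes. Cdkn1a encodes the cell cycle inhibitor p21, and its features include a further copy, so its reads may be split. It had 90.2 CPM in sorted, 57.1 CPM in unsorted and 26.7 CPM in room air macrophages, a log2 ratio of 0.66 (0.36 to 0.97). In alveolar-marker-rich cells the ratio was -0.77 (-1.16 to -0.36), so its direction depended on which macrophages were compared. Cdkn2a, which encodes p16 and p19, had 3 counts against 2 and was near the detection limit in both. Of 7 cell cycle inhibitors measured, 0 were at least 2-fold higher and 2 at least 2-fold lower, against 3.95% and 15.6% of all genes, and a count over so few genes says little about them. Lmnb1, the lamin B1 that is lost in senescent cells, had 53.7 against 91.9 CPM. Gdf15, a stress cytokine of the TGF-beta family and a p53 target, had 808, 39.8 and 74.8 CPM in sorted, unsorted and room air macrophages. Mdm2, the ubiquitin ligase of p53, had 301, 77.9 and 66.4 CPM. Of 16 p53 targets measured, 4 were at least 2-fold higher and 4 at least 2-fold lower. Their median was -0.42, against -0.28 over all genes. Gdf15, Mdm2, Sesn2 and Plk2 were the higher ones. Of 18 proliferation genes, 14 were within 2-fold, 4 were at least 2-fold lower and 0 higher, with a median of -0.67. Over all 7447 genes 15.6% were at least 2-fold lower and the median was -0.28, so the share of these genes past 2-fold was not far from that of all genes. Mki67, which marks cycling cells, had 159 against 203 CPM, and Pcna, the clamp of DNA polymerases, 292 against 185 CPM.

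The integrated stress response, in which Atf4 raises genes of amino acid supply, was higher in part. Of 18 members measured, 9 were at least 2-fold higher, 1 was at least 2-fold lower and the median was 1.04. Over all genes in macrophages these shares were 3.95% and 15.6%, and the median was -0.28. Atf4 itself had 435 against 183 CPM, Ddit3, which encodes CHOP, 89.8 against 17.9 CPM, and Atf3 481 against 124 CPM. Chac1, which degrades glutathione, had 219 counts against 1, a log2 ratio of 5.74 with an interval of 3.25 to 11.05. Slc3a2, the partner chain of Slc7a11, had 343 against 104 CPM. In alveolar-marker-rich cells the median was 0.30 and 4 of 15 members were at least 2-fold higher, against 4% of all genes. Vegfa, the growth factor of blood vessels, was the member at least 2-fold lower, with 14.8 CPM in sorted, 134 CPM in unsorted and 152 CPM in room air macrophages. Type I cells also express Vegfa, and the summed markers of type I cells stood at 129, 1332 and 1257 CPM in the same macrophages. Vegfa is itself one of the 10 type I markers, so these sums hold its own counts. The part of type I cell RNA in this was not tested.

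Secreted proteases and chemokines were uneven. The list of the senescence-associated secretory phenotype (SASP) was taken from the genes the study followed, and it is not independent of these samples. Of 27 genes, 17 were measured, 8 were at least 2-fold higher in sorted macrophages and 1 at least 2-fold lower, and the median was 0.33. Of all 7447 genes, 3.95% were at least 2-fold higher and 15.6% lower, with a median of -0.28. Cxcl2, a chemokine that draws neutrophils, had 2043 CPM in sorted, 175 CPM in unsorted and 72.6 CPM in room air macrophages. Its log2 ratio was 3.55 (3.39 to 3.71), and 3.42 in alveolar-marker-rich cells. Cxcl1, which acts on the same receptor, had 715 counts against 3, a log2 ratio of 5.86 (4.31 to 8.14). Mmp12, the macrophage elastase, had 522, 71.7 and 8.46 CPM, highest in the sorted and lowest in the room air library. In thinned macrophages it had counts in 23.9%, 4.64% and 1.42% of cells in the same order. Mmp19 had 242, 26.9 and 36.5 CPM. The cytokine Il1a had 124, 31.4 and 23.2 CPM. Il1b had 77.5, 94.7 and 80.6 CPM and turned direction with the class, with a log2 ratio of -0.29 in macrophages and 1.62 (0.93 to 2.42) in alveolar-marker-rich cells. Spp1, osteopontin, had 926, 258 and 300 CPM. Mmp14, a membrane-bound collagenase also made by epithelium, was the SASP member at least 2-fold lower, with 26.1 against 62.2 CPM.

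Other chemokines stood in either direction. Ccl24, an eotaxin, had 288 counts in sorted, 0 in unsorted and 69 in room air macrophages, which makes it at least 23.4-fold higher in sorted than in unsorted cells with the floor of 3 counts. Ccl12 and Ccl5 stood the other way, with 1.09 against 122 CPM and 3.14 against 100 CPM. Ccl5 is made by T and NK cells and by some monocytes, and Ccl12 is a monocyte chemoattractant. Ccl6, the most abundant chemokine here, had 5256 against 4161 CPM, within 2-fold. Of 15 chemokines measured, 7 were at least 2-fold higher and 3 at least 2-fold lower, against 3.95% and 15.6% of all genes. The lower part was not far from that of all genes.

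Immediate early genes, which answer stimulation within minutes and also respond to tissue dissociation, were lower in sorted macrophages. Of 17 measured, 10 were at least 2-fold lower, 2 were at least 2-fold higher and the median was -1.23. Over all 7447 genes these shares were 15.6% and 3.95%, and the median was -0.28. Fos had 147 CPM in sorted, 1114 CPM in unsorted and 1009 CPM in room air macrophages, a log2 ratio of -2.92 (-3.03 to -2.81). Klf2 had 18.9, 339 and 241 CPM. Both unsorted libraries stood together, and the sorted library stood apart from them. The higher ones were Ier3 and Jund, whose features include further copies. In alveolar-marker-rich cells the ratios were -3.41 for Fos and -3.50 for Klf2. There, 6 of 15 members were at least 2-fold lower, where 12.4% of all 5902 genes were lower and 4% higher. Of 11 heat shock genes, which also respond to handling, 0 were past 2-fold in either direction in macrophages, and 2 were at least 2-fold higher in alveolar-marker-rich cells.

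The macrophages of the libraries differed in the markers they held. At least 3 alveolar markers were found in 89.6% of sorted and 64.8% of unsorted macrophages, and 8 of 9 monocyte markers measured were at least 2-fold lower in them, with a median of -4.11. Of the 12 alveolar markers, Fabp1 and Krt79 were at least 2-fold higher and Cidec at least 2-fold lower, with a median of 0.08. The gate genes chose the class, and their ratios, from -0.53 for C1qa to 0.28 for Chil3, are given as a description. Mrc1, the mannose receptor, had 578 CPM in both. The lipid list, which holds genes for taking up and storing surfactant lipid, had a median of 0.21, with 2 of 20 at least 2-fold higher and 1 lower. Over all 7447 genes, 3.95% were at least 2-fold higher and 15.6% lower, with a median of -0.28. In alveolar-marker-rich cells the lipid median was -0.01, with 2 of 20 at least 2-fold higher and 5 lower. Over all 5902 genes there, the shares were 4% and 12.4% and the median -0.25. Pparg, the lipid-handling regulator of alveolar macrophages, had 64.1 against 98.0 CPM. The desaturases Scd1 and Scd2 of fatty acid synthesis were lower, with log2 ratios of -4.26 (-4.80 to -3.76) and -2.17 (-2.41 to -1.92). Type II cells express Scd1 strongly, and their summed markers stood at 1697 CPM in sorted and 13527 CPM in unsorted macrophages. The part of type II cell RNA in this was not tested. Among phagocytic and scavenger receptors, Clec4n, which is Dectin-2, and Colec12 were at least 2-fold higher. Of the 19 measured, 5 were at least 2-fold lower, against 15.6% of all genes, led by Stab1 with 9.84 against 63.9 CPM. Cx3cr1, the fractalkine receptor of monocytes and interstitial macrophages, had 14.1 against 234 CPM.

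**Figure D3:**
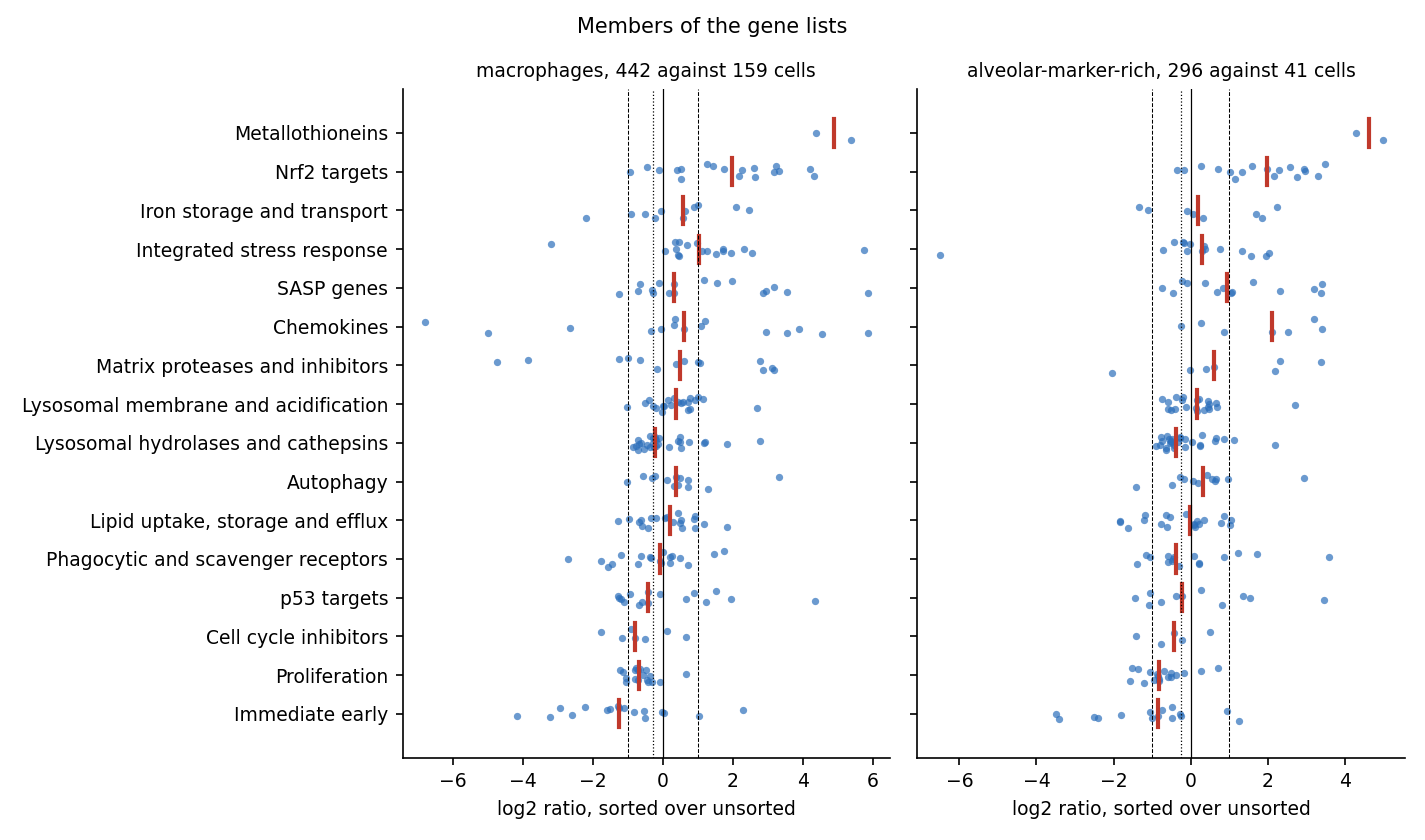
Log2 ratio of CPM in sorted over unsorted cells (x axis) for each measured member of 16 gene lists (y axis), in macrophages (left) and in alveolar-marker-rich macrophages (right). Blue points are genes, red bars list medians, dashed lines the 2-fold limits and the dotted line the median of all genes. The Nrf2 list had medians of 1.98 and 1.97, and the immediate early list of -1.23 and -0.85.

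The genes of the stress lists differed in how many cells carried them. In macrophages thinned to 2000 counts (431 sorted, 151 unsorted and 212 room air cells), Hmox1 had counts in 99.8% of sorted, 18.5% of unsorted and 16.0% of room air cells. Before thinning the shares were 100%, 46.5% and 41.5%. Mt1 had counts in 98.6%, 39.1% and 53.3% of thinned cells, and Mt2 in 84.9%, 5.30% and 7.55%. Shares in cells outside the class are set beside these. The sorted library offered 19 thinned cells with 3 type I markers outside the gate (median 16175 counts before thinning), with Hmox1 in 26.3%, Mt1 in 68.4% and Cxcl2 in 15.8%. In 331 thinned unsorted cells with 3 mesenchymal markers and none of the gate genes (median 8519 counts before thinning), Hmox1 had counts in 7.55%, Mt1 in 7.85% and Cxcl2 in 0%. These classes are of different cell types, so library and cell type cannot be told apart in these shares. Other cells also express Hmox1 and Mt1. The macrophage genes Ccl6 and Clec7a had counts in 0% of the 19 sorted cells. The part of macrophage RNA in these shares was not tested. The median sorted macrophage held 14 counts of Hmox1, 27 of Mt1 and 84 of Fth1 among 2000, against 0, 0 and 16 in the median unsorted macrophage. Hmox1 was thus present in nearly every sorted macrophage. Before thinning, where depth differs between cells, the 10% of unsorted macrophages with the most Hmox1 held 88.1% of its counts, against 25.3% in the sorted library. The highest unsorted macrophage held 49 counts of Hmox1 among 2000 and the highest sorted one 51.

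Other genes came from few cells. Cxcl2 had counts in 31.8% of thinned sorted macrophages, and before thinning the 10% with the most held 84.3% of its counts. For Mmp12 these values were 23.9% and 80.4%. Cxcl1 was found in only 7.47% of sorted macrophages before thinning, and all of its counts lay in 10% of them. Chac1 had counts in 20.4% and Il7r, the interleukin 7 receptor, in 21.7% before thinning. Il7r is also a T cell marker, and no sorted cell held 3 markers of T and NK cells. Slc7a11 and Gdf15 lay between, with 61.3% and 56.8% of thinned sorted macrophages. Over the 431 thinned sorted macrophages, log counts of Mt1 and Mt2 had a Pearson correlation of 0.80 and those of Cxcl1 and Cxcl2 of 0.49. Mt1 and Cxcl2 had one of -0.27. All of these points share 1 library and 1 depth, and the values are descriptions.

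**Figure D4:**
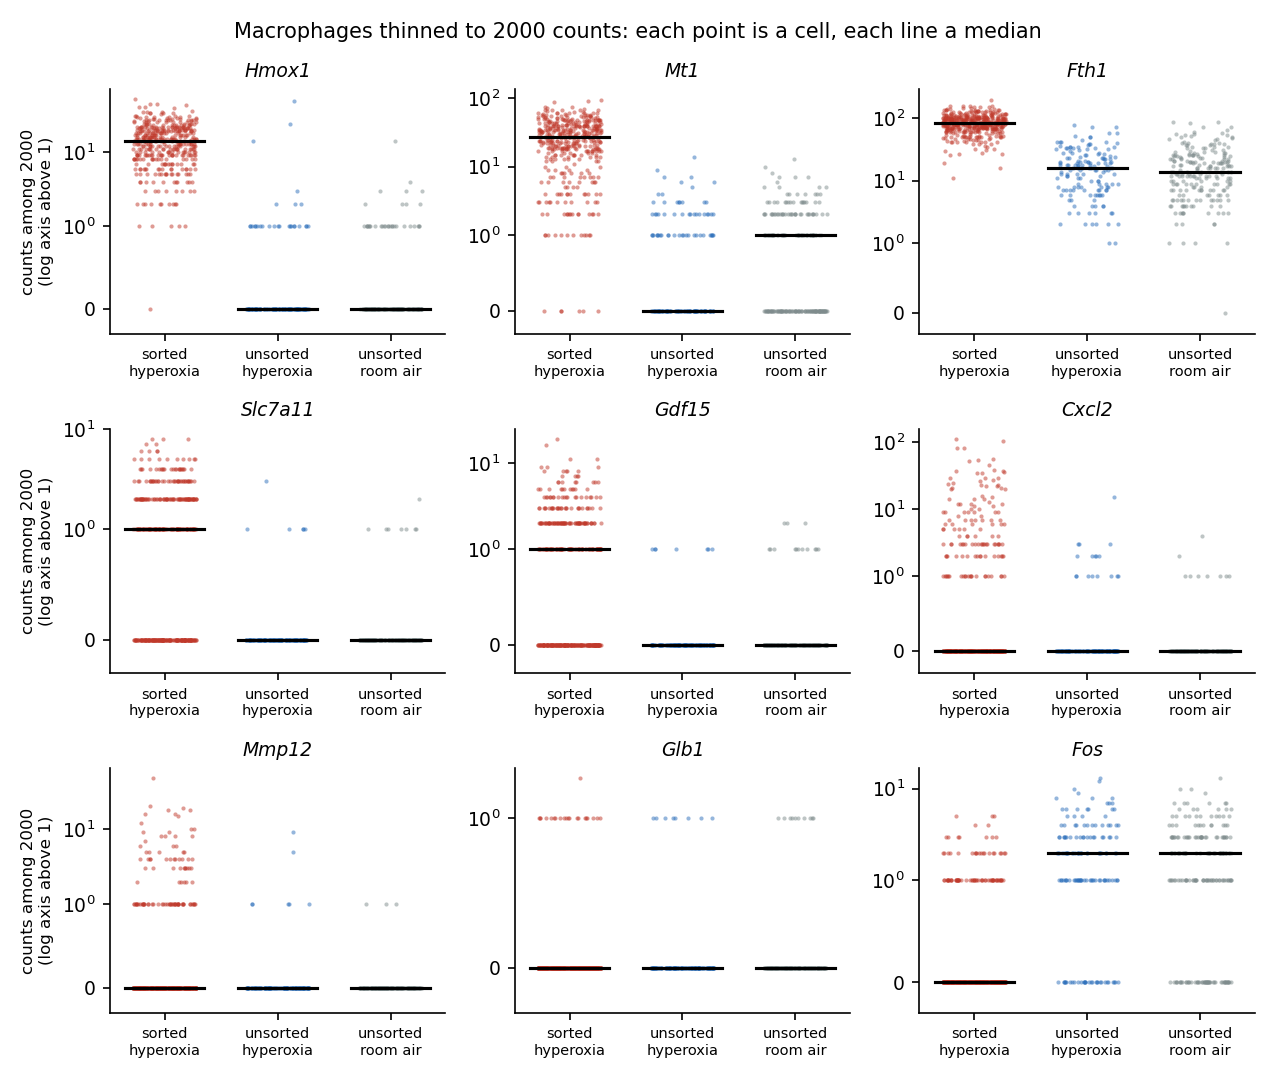
Counts of 9 genes (y axis, linear to 1 and logarithmic above) in single macrophages thinned to 2000 counts from the sorted hyperoxia, unsorted hyperoxia and unsorted room air libraries (x axis). Each point is a cell and each line a median. Hmox1 medians were 14, 0 and 0, and Fos medians were 0, 2 and 2.

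The macrophages were divided by whether a larger share of the 12 alveolar or of the 10 C1q markers was detected. More alveolar markers were found in 396 of 442 sorted, 120 of 159 unsorted and 190 of 241 room air macrophages. Cells near the division, with shares less than 0.1 apart, numbered 14, 38 and 28. The division set 39 unsorted macrophages on the C1q side. Of all 159 unsorted macrophages, however, 16 held 3 or more C1q markers and 65 held 3 or more monocyte markers. The cells called C1q-type below may thus not be the same kind of cell in each library. In these cells Sftpc, the surfactant gene of type II cells, had a log2 ratio of 3.995. The part of type II cell RNA in their values was not tested. On both sides of the division, stress genes were higher in the sorted library, at different levels. Hmox1 had 7860 CPM in sorted and 345 CPM in unsorted alveolar-type cells (exact Poisson intervals 7792 to 7928 and 315 to 378), and 5803 and 504 CPM in C1q-type cells (5628 to 5982 and 437 to 577). Mt1 had 16266 CPM in sorted alveolar-type and 1649 CPM in sorted C1q-type cells, so Mt1 was higher in the alveolar-type cells. In the unsorted library the Mt1 levels were 868 and 186 CPM. The chemokines stood the other way. Cxcl2 had 1483 CPM in sorted alveolar-type and 7197 CPM in sorted C1q-type cells, and Cxcl1 had 77.5 and 285 CPM. Ccl24 was at 3.18 and 372 CPM and Cdkn1a at 70.2 and 275 CPM. In unsorted cells, Cdkn1a had 68.3 and 19.6 CPM, the latter from 8 counts in 39 cells. Its intervals in sorted and unsorted alveolar-type cells were 63.9 to 76.9 and 55.2 to 83.6. In C1q-type cells they were 238 to 316 and 8.44 to 38.5. These intervals hold counting error only, with 1 library a side, so they do not compare the conditions. Ctsk was alveolar, with 456 against 27.9 CPM in sorted cells, and Gla was higher in C1q-type cells, with 201 against 90.6 CPM. Mmp12 had 530 and 446 CPM in the 2 sorted kinds and 92.3 and 2.44 CPM in the unsorted ones.

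**Figure D5:**
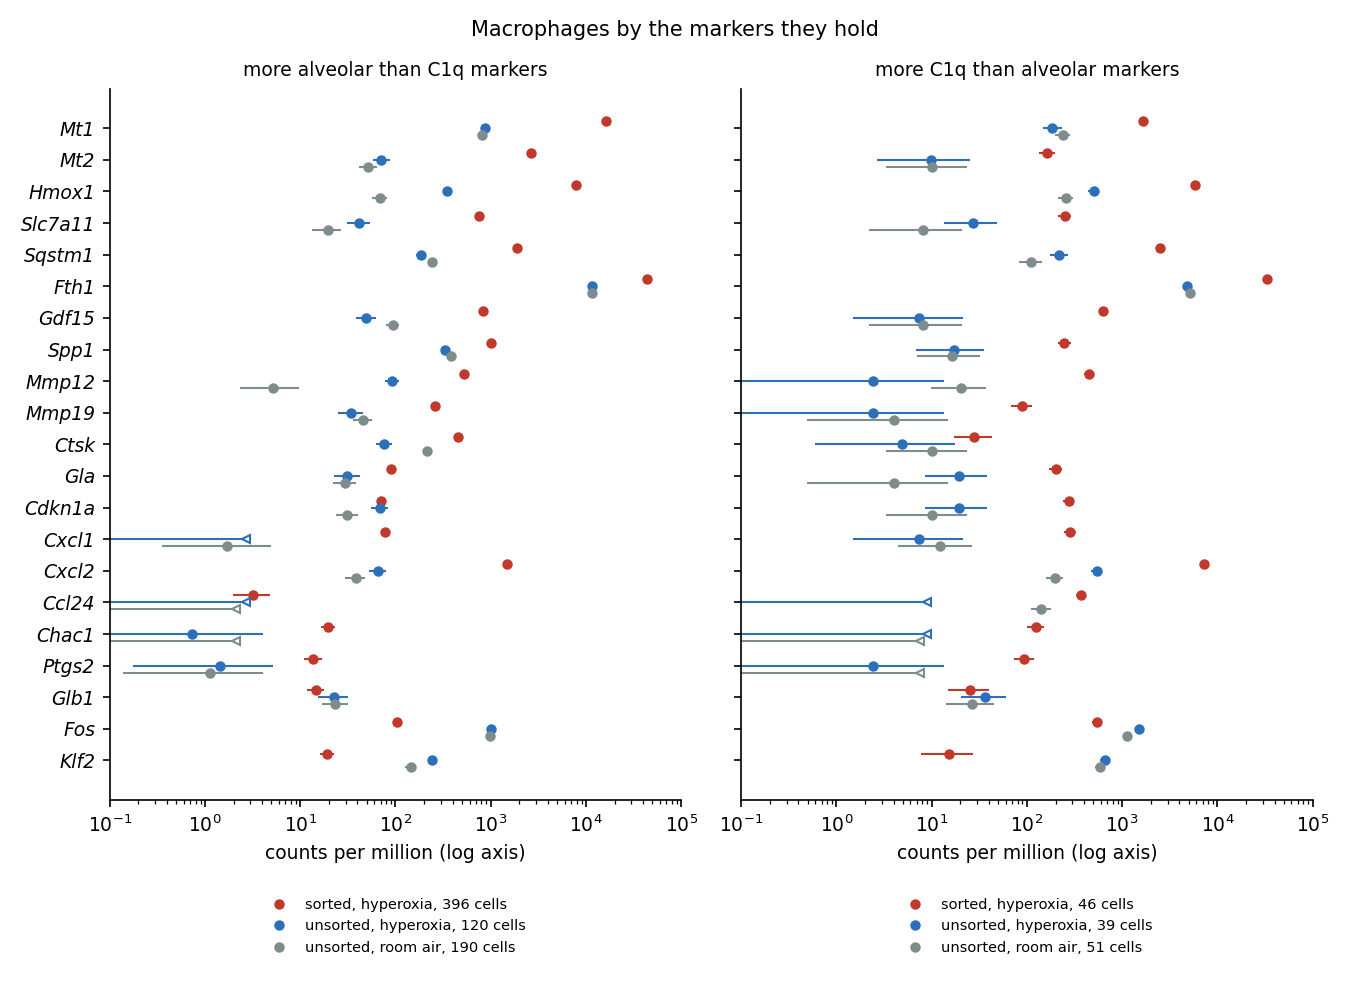
CPM (x axis, log scale) of 21 genes (y axis) in macrophages with more alveolar (left) or more C1q markers (right), in the sorted hyperoxia (red), unsorted hyperoxia (blue) and unsorted room air (grey) libraries. Bars are 95% exact Poisson intervals, and open triangles mark the upper limit of a gene with 0 counts. Mt1 was highest in sorted alveolar-type cells at 16266 CPM, and Cxcl2 in sorted C1q-type cells at 7197 CPM.

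The 51 sorted cells outside the macrophage gate were mixed. Of these, 26 held 3 or more of the 10 other macrophage markers, 20 held 3 type I markers, 12 held 3 type II markers, 5 held 3 mesenchymal and 4 held 3 endothelial markers, and a cell may be in more than one of these counts. With 18 of the 51 cells at 2 gate genes, and 52 of the macrophages at exactly 3, the class had members near its limit. Among the unsorted cells, 59 had 2 gate genes and 76 had 3. In the 19 thinned cells with type I markers outside the gate, Atf3 had counts in 78.9% and Fos in 42.1%, and Lipa and Ctsk in 0%. No cell type other than the macrophage reached enough sorted cells for a comparison of its genes.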

How the data were processed

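The values the authors deposited are counts of unique molecules for each gene in each barcode and were not normalized. Libraries were made with the 10x Genomics 3′ kit with v3.1 chemistry. The submitters' processing notes name Cell Ranger, mm10 and Seurat 3.2.1, and the matrix header gives software version 3.1.0. The mitochondrial share rests on the 2 features whose names start with mt-. Of the genes on the lists used here, 53 have a further copy among the 42454 features, and copies were not added up.

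Counts were summed over cells and divided by their total (CPM). Log2 ratios have 95% binomial intervals, CPM exact Poisson intervals and shares exact Clopper-Pearson intervals. A count of 0 was set to 3. The sorted and the unsorted hyperoxia library shared 0 barcodes. The library totals of kept cells were 7880365 and 13576172 counts, and those of macrophages 7313702 and 1785283. The sums and ratios were tested on simulated data. Doublets called by Scrublet (2 sorted, 4 unsorted) were left in, and leaving them out was an alternative. The genes named are the 12 highest and 12 lowest ratios of each comparison with at least 400 counts, and members of the 46 lists. Members and lists were chosen with earlier results of these data known. Promoters are from RefSeq, with 250 bases used. Python 3.11.15, numpy 2.4.6, scipy 1.17.1, pandas 2.3.3 and scanpy 1.11.5 were used.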

Additional observations from a re-analysis of the deposited data

How the results depend on the processing

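No paired analysis was possible because each side is 1 library, and no replicate could be left out. Of 98 summary values recomputed under the alternatives, 63 stayed close to the reported value and 35 moved, and the median of the Nrf2 targets did not move under any of those run. The cause of a move was not tested, except that a higher or lower count minimum and thinning change how many genes are measured. Over all cells, the 926 genes at least 2-fold higher became 2132 without a cell filter, 1820 with ratios centred on their median and 542 in thinned cells. The 4129 lower genes became 1913 with a minimum of 400 counts and 1333 in thinned cells. In macrophages, the 294 higher genes became 178 with a minimum of 400 counts, 523 centred and 178 thinned. The 1161 lower genes became 1852 with a minimum of 50 counts, 229 with 400, 720 centred, 138 thinned, 414 without cells holding 2 or more markers of other leukocytes, 192 in C1q-type cells and 729 in alveolar-marker-rich cells, an alternative chosen after seeing the data. The median log2 ratio of lysosomal hydrolases, -0.22, became 0.067 centred, 0.083 thinned, -0.37 with a gate of 4 genes, 0.36 in C1q-type and -0.38 in alveolar-marker-rich cells, so its sign depends on the setting. That of SASP genes, 0.33, became 1.52 thinned, 0.72 with a gate of 4 genes, 1.01 without cells holding markers of other leukocytes, 0.84 in alveolar-type, 1.23 in C1q-type and 0.94 in alveolar-marker-rich cells. The sorted macrophage share, 89.7%, became 85.8% with 500 to 8000 genes and under 10% mitochondrial counts, 80.7% without a cell filter, 93.3% with a gate of 2 genes, 79.1% with 4 and 66.6% in thinned cells. The unsorted share, 12.8%, became 6.79% without a cell filter, 17.5% with a gate of 2 genes, 6.66% with 4 and 8.36% in thinned cells. Of 1927 values of single genes recomputed, 63 had another sign than the reported value. For 57 of them the reported value was within 2-fold, as for Cdkn1a and Il1b in macrophages. The 6 with a reported value of at least 2-fold were Il1b over all cells, at -0.30 as a mean CPM per cell and -0.66 thinned, and in C1q-type cells Mmp14 at 0.78, Ier2 at 0.0070, Top2a at 0.88 and Sftpc at 3.995. Depth limits genes such as Cdkn2a and Chac1, with 1 to 3 counts on one side.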

Other observations

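The barcodes removed by the cell filter differed in kind. In the sorted library, 76 of 569 barcodes were removed, 66 of them for too few genes. In the unsorted library, 1418 of 2664 were removed, 1387 for too few genes, and over all its deposited barcodes hemoglobin took 37.6% of the counts. Over all deposited barcodes of the sorted library, hemoglobin took 0.644%.

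Il7r, the interleukin 7 receptor, had 397 counts in sorted macrophages, 3 in unsorted ones and 7.13 CPM in room air macrophages. Cxcl9, a chemokine raised by interferon-gamma, had 184 counts against 0, at least 15.0-fold higher with the floor of 3 counts. Of 7 interferon-stimulated genes measured, 1 was at least 2-fold higher and 2 at least 2-fold lower, with a median of -0.86. Over all genes in macrophages these shares were 3.95% and 15.6%, and the median was -0.28. Ptgs2, cyclooxygenase 2, had 157 counts against 3, a log2 ratio of 3.68 (2.10 to 5.97).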
